A study of Mus musculus with 8 samples.

Results

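Tight junctions and desmosomes are the contacts by which epithelial cells seal the space between them and hold together under tension. The genes described here are the rows of the deposited table whose symbols name claudins, tight junction plaque proteins, occludin and its MARVEL relatives, junctional adhesion molecules, desmosomal cadherins and plaque proteins, or the PAR and Crumbs polarity proteins that place these junctions. The symbol pattern took 55 of the 36255 genes in the table. Of these, 37 had enough counts to be tested and 18 did not. Pals1, which the pattern also names, has no row under that symbol. The pattern uses names and no measured values, but it was chosen with earlier results of these data known. Some of its members, such as Jup, Tjp1 and Pard3, also work at adherens junctions.

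Poly(A)-selected RNA of mouse cells was sequenced in 8 libraries, which form 4 groups of 2. These are day 2 embryoid bodies (EBd2, aggregates in which embryonic stem cells begin to differentiate) labelled Skp1a KO, EBd2 with floxed Skp1a (fl/fl), embryonic stem (ES) cells labelled Skp1a KO and fl/fl ES cells. The series asks how expression differs between knockout and undeleted cells at each stage. Skp1a encodes SKP1, the adaptor that links F-box proteins to CUL1 in SCF ubiquitin ligases. The libraries carry lot numbers, 1 and 2 in KO EBd2, 1 and 12 in fl/fl EBd2, 1 and 12 in KO ES cells and 1 and 2 in fl/fl ES cells, and values below follow that order. The labels do not say what a lot is, how Skp1a was deleted, which exons are floxed or how many clones were used. For the EBd2 libraries of KO and the ES libraries of fl/fl, the tissue label names the other stage than the title, and the groups follow the titles.

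In a tight junction, claudins and MARVEL proteins such as occludin span the membrane. The junctional adhesion molecules sit beside them, and ZO proteins and cingulin tie them to actin from inside. In a desmosome, desmogleins and desmocollins meet between cells, and plakoglobin, plakophilins and desmoplakin tie them to keratin filaments. Pluripotent stem cells grow as an epithelium with E-cadherin junctions and express Cldn4, Cldn6 and Cldn7. In the mouse embryo, trophectoderm is the earliest epithelium to form full tight junctions and desmosomes.

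Skp1a was at 286 and 289.6 CPM (counts relative to library size, adjusted by TMM factors) in KO EBd2 and at 401 and 389 CPM in fl/fl EBd2, a log2 difference of -0.46 ± 0.04 (adjusted p = 5.13e-07, edgeR quasi-likelihood test). In ES cells it was at 369 and 361 CPM in KO and at 420.2 and 430.3 CPM in fl/fl, a log2 difference of -0.22 ± 0.03 (adjusted p = 0.00073, edgeR). Both KO groups were below their fl/fl group, and most of the transcript was still counted in them. A count over the whole gene does not show which exons were lost. Total counts were 9260644 and 10055667 in KO EBd2, 7858452 and 9133497 in fl/fl EBd2, and between 21545868 and 23343471 in the ES libraries. Mitochondrial transcripts took 3.15% and 3.24% of counts in KO EBd2 against 2.70% and 2.28% in fl/fl EBd2. They took 2.43% and 2.42% in KO ES cells against 1.76% and 1.73% in fl/fl ES cells. Summed formative epiblast markers were at 488 to 507 CPM in KO EBd2 against 295 to 310.5 CPM in KO ES cells, and at 2157 to 2313 CPM in fl/fl EBd2 against 354 to 358 CPM in fl/fl ES cells. The list was higher in both EBd2 groups than in the ES group of the same genotype.

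In EBd2 the desmosome genes and the junctional adhesion molecules were mostly higher in KO than in fl/fl, while the plaque proteins of the tight junction were mostly lower. Desmoplakin (Dsp) was 3.11-fold, Jam2 2.94-fold, Dsc2 2.99-fold, Pkp3 2.897-fold and Marveld1 2.68-fold the fl/fl level. Tjp3 (ZO-3) was at 0.6297 times and cingulin (Cgn) at 0.7197 times the fl/fl level. Of the 37 tested genes, 17 (45.9%) were higher and 8 (21.6%) lower at an adjusted p below 0.05, and 12 passed in neither direction. The background was large, since 30.7% of all 16542 genes tested were called higher and 31.5% lower (62.2% in either direction). At least 2-fold rises numbered 9 of 37 against 14.9% of all genes, and 1 gene, Cldn1, fell at least 2-fold, against 6.17% of all genes. The median log2 difference was 0.15 over the 37 genes and 0.004 over all genes. Both KO libraries were above both fl/fl libraries for 19 of the 37 genes and below them for 9, against 40.2% and 39.6% of all genes tested. Genes such as Dsg3 and Cldn1 passed the filter on low counts mainly through the group in which they were high, so these counts describe the list and support nothing further.

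All log2 differences are given ± standard error from the edgeR quasi-likelihood fit with n = 2 libraries per group, and every adjusted p comes from that test with Benjamini-Hochberg adjustment over all 16542 genes. With lots of unknown origin, a p-value reflects no more than the scatter of these 8 libraries, and that scatter may be technical. In whole embryoid bodies, fewer cells of a type and less RNA per cell cannot be told apart.

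**Figure D1:**
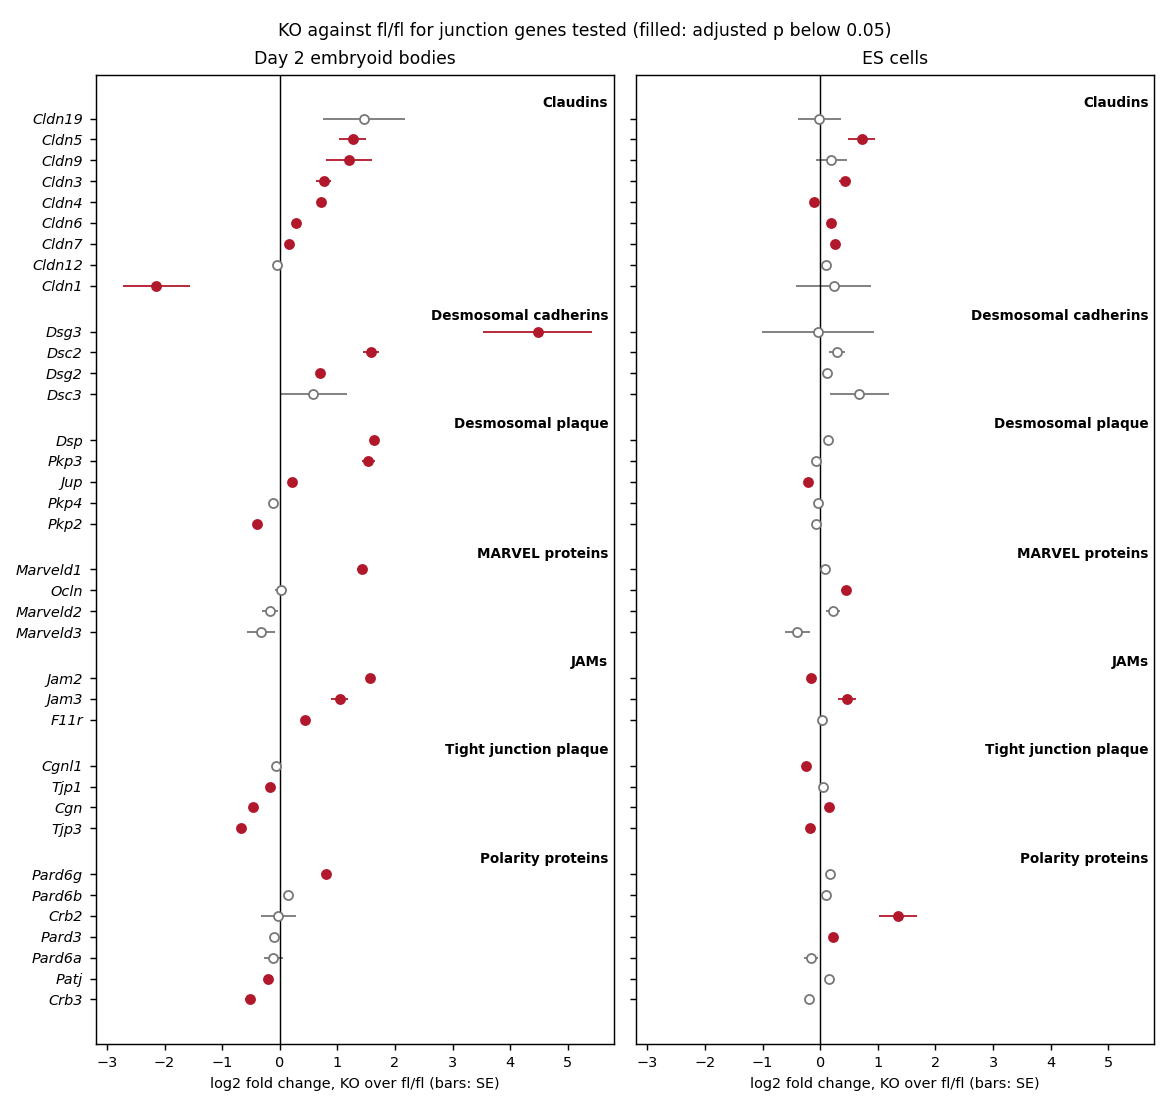
Log2 difference between KO and fl/fl in EBd2 and in ES cells for tested genes, grouped by junction component. Points are edgeR estimates, bars are standard errors with 2 libraries per group, and filled points passed an adjusted p of 0.05. In EBd2 the desmosomal and JAM genes lie mostly to the right of 0 and the tight junction plaque genes to the left, while the differences in ES cells are smaller.

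The 250 bases upstream of the RefSeq start (GRCm38.p6) are shown for Dsp and Marveld1, which rose, for Cldn4, the claudin with the smallest p among those that rose, and for Tjp3, the plaque gene that fell most. They are written 5′ to 3′ on the gene's strand, with capitals marking GGGCGG, the GC box bound by SP factors, and CAGGTG, the E-box bound by SNAI and ZEB repressors, on either strand.
Dsp, chr13:38151044-38151293, plus strand: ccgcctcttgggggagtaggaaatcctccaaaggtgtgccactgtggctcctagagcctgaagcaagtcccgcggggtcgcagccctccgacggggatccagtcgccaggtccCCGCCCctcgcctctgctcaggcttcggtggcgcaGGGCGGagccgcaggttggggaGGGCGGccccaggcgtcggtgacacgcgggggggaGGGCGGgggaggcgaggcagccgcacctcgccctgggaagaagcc
Marveld1, chr19:42147139-42147388, plus strand: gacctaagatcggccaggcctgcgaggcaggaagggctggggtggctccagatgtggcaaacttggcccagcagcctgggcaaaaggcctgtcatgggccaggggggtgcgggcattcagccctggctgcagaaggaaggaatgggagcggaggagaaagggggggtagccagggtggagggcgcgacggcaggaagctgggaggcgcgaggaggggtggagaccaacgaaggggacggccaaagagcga
Cldn4, chr5:134946935-134947184, minus strand: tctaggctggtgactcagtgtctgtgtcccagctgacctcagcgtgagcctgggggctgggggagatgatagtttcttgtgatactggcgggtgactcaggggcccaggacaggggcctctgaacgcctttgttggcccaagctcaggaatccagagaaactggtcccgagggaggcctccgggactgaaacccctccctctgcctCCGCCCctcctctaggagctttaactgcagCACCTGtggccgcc
Tjp3, chr10:81291582-81291831, minus strand: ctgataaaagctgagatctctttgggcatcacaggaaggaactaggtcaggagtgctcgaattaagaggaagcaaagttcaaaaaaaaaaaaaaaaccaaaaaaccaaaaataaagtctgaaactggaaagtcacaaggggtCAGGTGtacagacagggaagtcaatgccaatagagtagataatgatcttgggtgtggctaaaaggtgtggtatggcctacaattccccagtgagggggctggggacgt

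These windows differ in base composition. The Dsp window was 72.4% G and C with 22 CpG dinucleotides and 4 GC boxes, and it lies in an annotated exon of Gm10129 on the other strand. The Marveld1 window held 12 CpG and neither motif. The Cldn4 window held 7 CpG, a GC box and, 14 bases before the start, CAGGTG on the opposite strand. The Tjp3 window was 43.2% G and C with 2 CpG, and held CAGGTG on its own strand 108 bases before the start. The median over the 27025 RefSeq promoters was 6 CpG. Windows of the same length were at hand for 25 of the 37 tested genes. For these the RefSeq start nearest the outer end of the gene in GENCODE vM21 was taken. For the background promoters it was the first start listed, so the shares below rest on unlike choices of start. CAGGTG stood in 7 of the 25 (28%), which were Cldn4, Cldn6, Crb3, F11r, Pard6b, Patj and Tjp3, against 16.1% of the 11878 promoters of tested genes and 17.1% of all promoters. Of these 7, Cldn4, Cldn6 and F11r were higher in KO EBd2, Crb3, Patj and Tjp3 lower, and Pard6b was not called. GGGCGG stood in 21 of the 25 (84%), against 57.5% of promoters of tested genes and 32.9% of all. TATAAA stood in that of Marveld2 alone, against 7.12% of promoters of tested genes. AACCGGTT, a site of grainyhead factors, and the TCF/LEF sites CTTTGAA and CTTTGAT were in none of the 25 windows, against 0.185%, 3.29% and 2.39% of promoters of tested genes. Letters alone do not show that a factor binds.

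Of the desmosomal genes tested, 3 of 4 cadherins and 3 of 5 plaque genes were higher in KO EBd2, and 1 plaque gene, Pkp2, was lower. Over all genes tested 30.7% were called higher and 31.5% lower. Dsp, the plakin that anchors keratin filaments, was at 133 and 122 CPM in KO EBd2 and at 38.7 and 42.9 CPM in fl/fl EBd2. Dsc2, the most widely expressed desmocollin, was at 23.8 and 25.8 CPM in KO EBd2 and at 9.31 and 7.38 CPM in fl/fl EBd2. Dsg2, the desmoglein of simple epithelia, was at 70.4 and 74.9 CPM in KO EBd2 and at 47.1 and 43.3 CPM in fl/fl EBd2. In each of the 3 genes both KO libraries stood above both fl/fl libraries. The log2 differences were 1.64 ± 0.072 for Dsp (adjusted p = 6.19e-09, edgeR), 1.58 ± 0.14 for Dsc2 (adjusted p = 1.78e-06) and 0.69 ± 0.071 for Dsg2 (adjusted p = 5.78e-06).

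Dsg3, a desmoglein best known from stratified epithelia, had 33 counts in KO EBd2 and 1 count in fl/fl EBd2 over both libraries. The ratio of these sums, scaled to library size, was 24.8, with a 95% interval of 4.15 to 1009 that covers counting error only. Its adjusted p was 0.00153 (edgeR), and its highest level, 1.86 CPM, was low beside Dsg2. Dsc3, at 1.18 and 0.715 CPM in KO EBd2 and 0.8096 and 0.462 CPM in fl/fl EBd2, was not called (adjusted p = 0.406, edgeR). Dsc1 had 1 count and Dsg4 none in all 8 libraries. Per kilobase of exon, Dsg2 stood above Dsc2 in all 4 groups, at mean levels of 8.79 and 4.696 CPM per kb in KO EBd2 and 5.46 and 1.58 CPM per kb in fl/fl EBd2. The summed desmosomal cadherins were at 13.5 and 14.3 CPM per kb in KO EBd2 and at 7.61 and 6.74 CPM per kb in fl/fl EBd2.

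Among the armadillo proteins of the desmosomal plaque the directions differed. Pkp3, a plakophilin of simple and stratified epithelia, was at 30.1 and 27.3 CPM in KO EBd2 and at 9.31 and 10.4 CPM in fl/fl EBd2. Jup (plakoglobin), which binds desmosomal and classical cadherins, was at 115 and 112 CPM in KO EBd2 and at 101 and 94.96 CPM in fl/fl EBd2. Pkp2, the plakophilin of heart and simple epithelia, was at 61.4 and 56.4 CPM in KO EBd2 and at 75.6 and 79.8 CPM in fl/fl EBd2. The KO libraries lay above the fl/fl libraries for Pkp3 and Jup and below them for Pkp2, with no overlap. The log2 differences were 1.53 ± 0.11 for Pkp3 (adjusted p = 2.86e-07, edgeR), 0.21 ± 0.0504 for Jup (adjusted p = 0.00343) and -0.403 ± 0.066 for Pkp2 (adjusted p = 0.000239). Per kilobase, Pkp2 was at 11 and Pkp3 at 7.93 CPM per kb in KO EBd2, against 14.5 for Pkp2 and 2.72 for Pkp3 in fl/fl EBd2. Pkp4, which is found at adherens junctions and desmosomes, overlapped between the groups (adjusted p = 0.0893, edgeR). Pkp1 had 34 counts over the 8 libraries and was not tested.

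Desmosome partners that the symbol pattern does not take were also higher. Of 10 listed genes 7 were tested and all 7 were higher in KO EBd2, with a median log2 difference of 2.26. Beside them, 30.7% of all genes tested were called higher. Perp, a tetraspan protein of desmosomes, rose by 2.97 ± 0.072 (adjusted p = 1.10e-10, edgeR). The simple-epithelial keratins Krt8 and Krt18, whose filaments attach to desmoplakin, rose by 2.26 ± 0.044 (adjusted p = 2.65e-11, edgeR) and 1.39 ± 0.044 (adjusted p = 6.08e-10, edgeR). The other 4 were Ppl, Evpl, Krt7 and Krt19. Krt7, Krt8 and Krt18 are also on the trophectoderm list used below.

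All 3 junctional adhesion molecules, immunoglobulin-domain proteins of the tight junction, were higher in KO EBd2, where the share of all genes called higher was 30.7%. Jam2 (JAM-B) was at 58.4 and 55.6 CPM in KO EBd2 and at 19.3 and 19.4 CPM in fl/fl EBd2. Jam3 (JAM-C) was at 27.2 and 30.5 CPM in KO EBd2 and at 15.9 and 12.5 CPM in fl/fl EBd2. F11r (JAM-A) was at 95.6 and 96.5 CPM in KO EBd2 and at 68.4 and 73.6 CPM in fl/fl EBd2. No fl/fl library reached a KO library for any of them. The log2 differences were 1.56 ± 0.068 for Jam2 (adjusted p = 5.92e-09, edgeR), 1.04 ± 0.15 for Jam3 (adjusted p = 0.000101) and 0.43 ± 0.054 for F11r (adjusted p = 3.02e-05). F11r had the highest mean level of the 3 in each group, 36.1 CPM per kb in KO EBd2 and 26.7 CPM per kb in fl/fl EBd2. Jam3 shares 1159 bases with Gm48796 on the other strand and Dsp 499 bases with Gm10129. The sources do not say whether counting used strand, so reads from those stretches cannot be told apart.

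Of the 4 MARVEL-domain proteins 1 was called in EBd2, against 62.2% of all genes called in either direction. Marveld1, which is found on microtubules and in the nucleus, was at 63.98 and 71.7 CPM in KO EBd2. In fl/fl EBd2 it was at 24.8 and 25.8 CPM, without overlap. Its log2 difference was 1.42 ± 0.0801 (adjusted p = 4.21e-08, edgeR). Occludin (Ocln), the first membrane protein found at tight junctions, was at 22.5 and 19.6 CPM in KO EBd2 and at 20.9 and 20.5 CPM in fl/fl EBd2. Marveld2 (tricellulin), which seals the corners where cells meet, was at 11.8 and 12.6 CPM in KO EBd2 and at 15.8 and 12 CPM in fl/fl EBd2. Marveld3 was at 4.21 and 6.89 CPM in KO EBd2 and at 6.21 and 7.73 CPM in fl/fl EBd2. These 3 genes overlapped between the groups. Their log2 differences were 0.021 ± 0.1, -0.18 ± 0.14 and -0.33 ± 0.24, in that order, with adjusted p of 0.879, 0.297 and 0.267 (edgeR). With scaling by library size alone in place of TMM, Ocln was called higher, at 0.25 (adjusted p = 0.0445, edgeR).

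**Figure D2:**
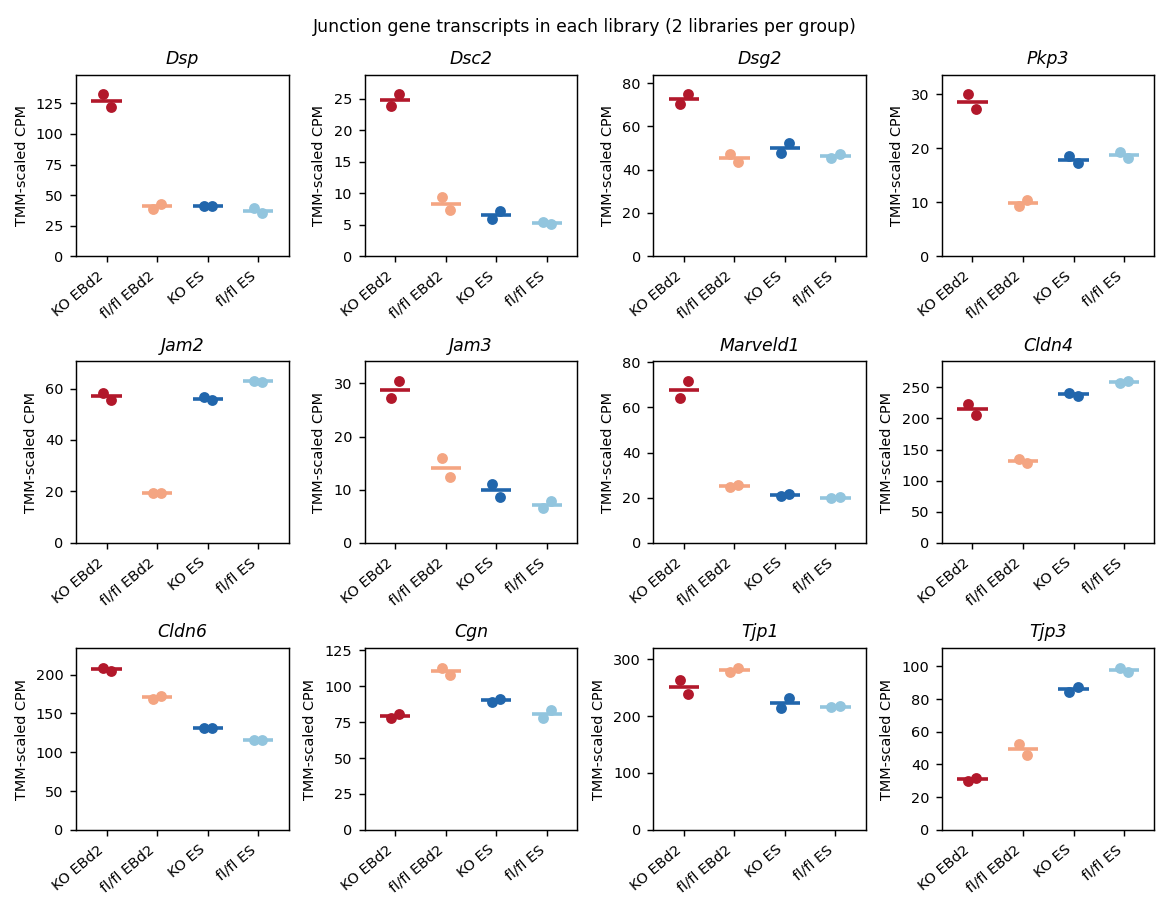
TMM-scaled CPM in each library for 12 junction genes, with KO left of fl/fl within each stage. Points are libraries and lines are the means of the 2 libraries of a group. Dsp, Dsc2, Jam2 and Marveld1 are higher in KO than in fl/fl EBd2, and Tjp3 and Cgn are lower.

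9 of the 23 claudin genes were tested, and in EBd2 6 of them rose and 1 fell. The background was 30.7% of all genes called higher and 31.5% lower. Cldn4, a claudin of simple epithelia, was at 223 and 206 CPM in KO EBd2 and at 134 and 128 CPM in fl/fl EBd2. Cldn6, a claudin of embryonic epithelia, was at 209 and 204 CPM in KO EBd2 and at 169 and 172 CPM in fl/fl EBd2. Cldn3, a barrier-forming claudin, was at 22.9 and 23.6 CPM in KO EBd2 and at 13.9 and 13.6 CPM in fl/fl EBd2. Each of the 3 was higher in both KO libraries than in either fl/fl library. The log2 differences were 0.71 ± 0.047 for Cldn4 (adjusted p = 1.45e-07, edgeR), 0.27 ± 0.036 for Cldn6 (adjusted p = 3.83e-05) and 0.76 ± 0.13 for Cldn3 (adjusted p = 0.0003698). Cldn3 and Cldn4 neighbour each other on chromosome 5, 39279 bases apart in GENCODE vM21.

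Smaller or scarcer claudins also differed. Cldn7, a claudin of epithelial lateral membranes, was at 75.7 and 68.8 CPM in KO EBd2 and at 66.4 and 63.7 CPM in fl/fl EBd2, a log2 difference of 0.15 ± 0.058 (adjusted p = 0.0402, edgeR). Cldn5, the main claudin of endothelium, was at 6.66 and 6.26 CPM in KO EBd2 and at 2.699 and 2.65 CPM in fl/fl EBd2, a log2 difference of 1.27 ± 0.23 (adjusted p = 0.000597, edgeR). Cldn9, a paralog of Cldn6, was at 3.43 and 2.06 CPM in KO EBd2 and at 0.8096 and 1.5 CPM in fl/fl EBd2, a log2 difference of 1.204 ± 0.399 (adjusted p = 0.0211, edgeR). All 3 were higher in both KO libraries, although the difference was small in Cldn7. Cldn1, the claudin of the skin barrier, went the other way, at 0.392 and 0.358 CPM in KO EBd2 and 1.75 and 1.62 CPM in fl/fl EBd2, a log2 difference of -2.14 ± 0.59 (adjusted p = 0.00768, edgeR). It was the largest fall among the members called, at a level under 2 CPM in every library. Cldn9 and Cldn6 lie tail to tail on chromosome 17 with 137 bases between them. If counting ignored strand, reads that run past the end of the far more abundant Cldn6 could be counted to Cldn9, which was not tested. Cldn12 and Cldn19 were not called in EBd2 (adjusted p = 0.544 and 0.0932, edgeR).

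Per kilobase of exon, Cldn4 and Cldn6 led the claudins in every library, and their shares differed. Cldn4 made up 38.4% and 37.5% of the summed claudin level in KO EBd2 and 31.9% and 30.9% in fl/fl EBd2. Cldn6 made up 38.01% and 39.2% in KO EBd2 and 42.3% and 43.8% in fl/fl EBd2. The summed claudins were at 319 and 303 CPM per kb in KO EBd2 and at 232 and 229 CPM per kb in fl/fl EBd2. In ES cells Cldn4 alone made up 46.7% and 46.3% in KO and 52.1% and 53.04% in fl/fl. Its share was thus lower in KO than in fl/fl ES cells and higher in KO than in fl/fl EBd2, and the 2 libraries of a group lay within 1 percentage point of each other. These shares are descriptions without a test.

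**Figure D3:**
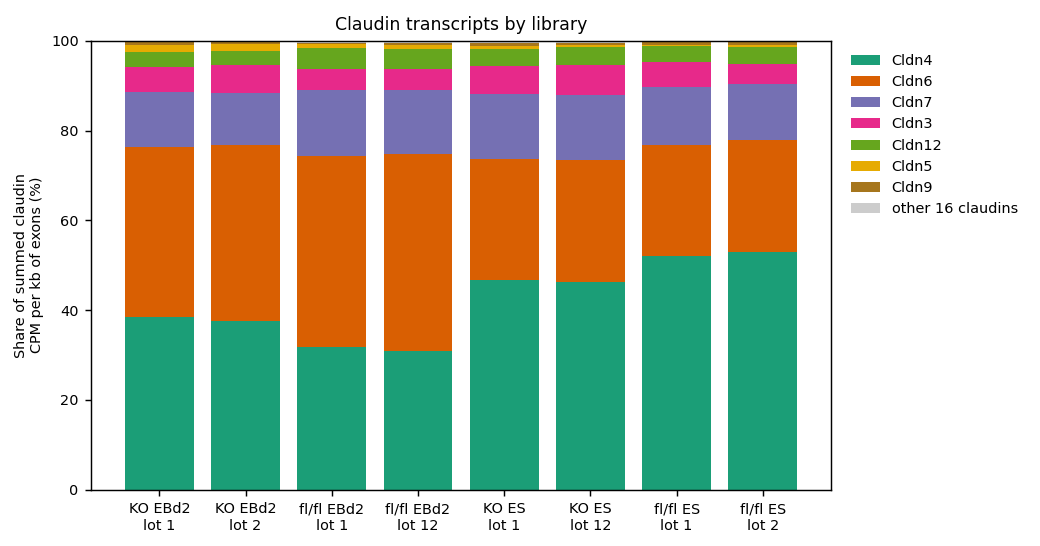
Share of the summed claudin level (CPM per kb of exon) taken by each claudin in each of the 8 libraries, as stacked bars from 0 to 100%, with 16 further claudins drawn together in grey. Cldn4 takes 37.5% to 38.4% in KO EBd2 against 30.9% to 31.9% in fl/fl EBd2, and 46.3% to 46.7% in KO ES cells against 52.1% to 53.04% in fl/fl ES cells.

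In the cytoplasmic plaque of the tight junction, Tjp3 and Cgn were lower in KO EBd2, and no gene was called higher. Tjp1 was also called lower, but not with library sizes alone or without KO EBd2 lot 2 or fl/fl EBd2 lot 12. Tjp3 (ZO-3), an epithelial scaffold that binds claudins, was at 30.2 and 31.6 CPM in KO EBd2 and at 52.6 and 45.9 CPM in fl/fl EBd2. Cgn (cingulin), which joins ZO proteins to myosin and microtubules, was at 77.9 and 80.8 CPM in KO EBd2 and at 113 and 108 CPM in fl/fl EBd2. In both genes the 2 KO libraries lay below the 2 fl/fl libraries. The log2 differences were -0.67 ± 0.076 for Tjp3 (adjusted p = 1.38e-05, edgeR) and -0.47 ± 0.052 for Cgn (adjusted p = 9.51e-06). Tjp1 (ZO-1), a scaffold that links claudins to actin, was at 263 and 239 CPM in KO EBd2 and at 277 and 285 CPM in fl/fl EBd2, a log2 difference of -0.17 ± 0.053 (adjusted p = 0.0164, edgeR). Cgnl1 (paracingulin) overlapped between the groups, at 87.5 and 74.9 CPM in KO EBd2 and 83.7 and 85.96 CPM in fl/fl EBd2 (adjusted p = 0.418, edgeR).

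Polarity proteins showed no common direction. Pard6g, a PAR6 adaptor of atypical protein kinase C, was at 46.6 and 43.7 CPM in KO EBd2 and at 25.8 and 26.2 CPM in fl/fl EBd2, a log2 difference of 0.796 ± 0.078 (adjusted p = 3.84e-06, edgeR). Crb3, the Crumbs protein of epithelia, was at 22.9 and 19.8 CPM in KO EBd2 and at 30.1 and 30.9 CPM in fl/fl EBd2, a log2 difference of -0.52 ± 0.0899 (adjusted p = 0.00038, edgeR). Patj, a multi-PDZ scaffold of the Crumbs complex, was at 39.98 and 40.2 CPM in KO EBd2 and at 43.4 and 48.6 CPM in fl/fl EBd2, a log2 difference of -0.202 ± 0.076 (adjusted p = 0.0383, edgeR). None of the 3 overlapped between the groups, and Pard6g was higher in KO while Crb3 and Patj were lower. Pard6b, another PAR6 adaptor, was at 48.5 and 49.1 CPM in KO EBd2 and at 41.3 and 46.8 CPM in fl/fl EBd2 (adjusted p = 0.08705, edgeR). Pard3, the PAR scaffold, was at 80.3 and 73.7 CPM in KO EBd2 and at 81.5 and 83.5 CPM in fl/fl EBd2 (adjusted p = 0.175, edgeR). Neither was called, and neither were Pard6a and Crb2 (adjusted p = 0.578 and 0.949). Pard6b was called higher with library sizes alone (0.37, adjusted p = 0.000646, edgeR). It was also called with counts thinned to the smallest total (0.21, adjusted p = 0.0276, edgeR).

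Split by place in the cell, a division made after the values were seen, 13 of the 22 tested membrane-spanning members rose and 2 fell in KO EBd2, and 4 of the 15 cytoplasmic members rose and 6 fell. The 2 that fell among the first were Cldn1 and Crb3, and the 4 that rose among the second were Dsp, Jup, Pkp3 and Pard6g. Among the first 59.1% were higher and 9.09% lower, and among the second 26.7% and 40%, beside 30.7% and 31.5% of all genes. No contrast by place in the cell is read from these counts. Scaling by library size alone in place of TMM shifted the median log2 difference of all genes in KO against fl/fl EBd2 by 0.23. With it 20 members were higher and 6 lower, and of all genes 7075 were higher and 3345 lower, against 5072 higher and 5217 lower with TMM. Tjp1 (0.059, adjusted p = 0.344, edgeR) and Patj (0.025, adjusted p = 0.796) then changed sign, and the falls of Tjp3, Cgn, Pkp2, Crb3 and Cldn1 were still called. Of the 25 calls 20 held in each of the 8 fits that left out 1 library. Calls were lost, with the adjusted p in brackets, without KO EBd2 lot 1 for Cldn7 (0.343), Cldn9 (0.16) and Patj (0.103), without KO EBd2 lot 2 for Cldn1 (0.0574), Patj (0.0988) and Tjp1 (0.148), and without fl/fl EBd2 lot 1 for Cldn7 (0.0691) and Cldn9 (0.137). Further calls were lost without fl/fl EBd2 lot 12 for Cldn7 (0.209), Patj (0.3401) and Tjp1 (0.108), without KO ES lot 12 for Cldn7 (0.05398), and without fl/fl ES lot 1 for Cldn7 (0.0587). They were also lost without fl/fl ES lot 2 for Patj (0.0552). Calls were gained, with the adjusted p in brackets, without KO EBd2 lot 1 for Cgnl1 (0.0238), without KO EBd2 lot 2 for Marveld3 (0.0365), and without fl/fl EBd2 lot 12 for Pard6b (0.0233). The call of Patj was also lost with DESeq2 (adjusted p = 0.101), with only the 4 EBd2 libraries (adjusted p = 0.0707, edgeR) and with counts thinned to the smallest total (adjusted p = 0.0790, edgeR). DESeq2 did not call Cldn1 (adjusted p = 0.0510) or Cldn7 (adjusted p = 0.0700), and Cldn7 was not called without the filter on low counts (adjusted p = 0.0560, edgeR).

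Genes of other cell contacts went in both directions in KO EBd2, and the counts stand beside 30.7% of all genes called higher and 31.5% lower, so nothing particular to these lists is read from them. Of 13 adherens junction and nectin genes 4 were higher and 6 lower in KO EBd2, with a median log2 difference of -0.19. Afdn (afadin), which joins nectins to actin, was lower, at -1.04 ± 0.037 (adjusted p = 1.44e-09, edgeR). Nectin2 and Nectin4, both cell adhesion molecules, went opposite ways, at -0.85 ± 0.047 (adjusted p = 3.37e-08, edgeR) and 2.59 ± 0.19 (adjusted p = 2.88e-07, edgeR). Of 8 tested gap junction genes 5 were higher and 1 lower, with a median of 0.75. The connexin Gjb5 rose by 1.29 ± 0.18 (adjusted p = 7.13e-05, edgeR). Gja1 (connexin 43) was lower, at -0.22 ± 0.037 (adjusted p = 0.000327, edgeR), and at 0.011 (adjusted p = 0.809) with library sizes alone. Of 25 tested scaffold and polarity partners 7 were higher and 11 lower, with a median of -0.12. Mpdz, a multi-PDZ paralog of Patj, was at -1.57 ± 0.0896 (adjusted p = 4.67e-08, edgeR) and Dlg3, a MAGUK scaffold, at -1.15 ± 0.0795 (adjusted p = 2.09e-07, edgeR). Amot (angiomotin), which binds Patj and Mpdz, was at 0.803 ± 0.042 (adjusted p = 2.23e-08, edgeR).

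Genes of the epithelial and mesenchymal lists were mostly higher in KO EBd2, beside 30.7% of all genes called higher and 31.5% lower. Of 15 epithelial regulators 9 were higher and 3 lower, with a median log2 difference of 0.59. Klf5, a factor of epithelia and naive stem cells, rose by 0.96 ± 0.049 (adjusted p = 1.98e-08, edgeR), and St14 (matriptase) by 0.93 ± 0.041 (adjusted p = 6.77e-09, edgeR). Esrp1, an epithelial splicing factor, was lower, at -1.02 ± 0.054 (adjusted p = 2.53e-08, edgeR). Of 8 mesenchymal transition genes 7 were higher and none lower, with a median of 1.21. Vim and Twist2 of this list are also on the fibroblast feeder list used below. The repressor Snai1 rose by 2.37 ± 0.197 (adjusted p = 9.58e-07, edgeR), Vim (vimentin) by 1.69 ± 0.063 (adjusted p = 1.87e-09, edgeR) and Fn1 (fibronectin) by 0.299 ± 0.053 (adjusted p = 0.000423, edgeR).

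Markers of several cell types moved with the junction genes, and their part in the results above was not tested. The counts below stand beside 30.7% of all genes called higher and 31.5% lower. Eomes is on both the trophectoderm and primitive streak lists, and Klf5 is on both the epithelial and naive pluripotency lists. Summed over 10 trophectoderm markers, levels were 805 to 819 CPM in KO EBd2 and 295 to 304 CPM in fl/fl EBd2, and 9 of 10 were called higher and 1 lower. Over 13 primitive and visceral endoderm markers they were 1145 to 1157 CPM in KO EBd2 and 480.0 to 525 CPM in fl/fl EBd2, and 11 of 12 tested were higher and 1 lower. The 8 markers of surface epithelium and keratinocytes summed to 45.95 to 49.99 CPM in KO EBd2 and 3.37 to 3.81 CPM in fl/fl EBd2, where Krt15, Krtdap and Ivl had no counts, and all 5 tested were higher. The 16 fibroblast feeder markers summed to 389 to 422 CPM in KO EBd2 and 103 to 109 CPM in fl/fl EBd2, and 13 of 15 tested were higher and none lower. The primitive streak list summed to 162 to 167 CPM in KO EBd2 and 22.5 to 24.4 CPM in fl/fl EBd2, with 5 of 7 tested higher and none lower. Naive pluripotency markers summed to 1367 to 1457 CPM in KO EBd2 and 1006 to 1071 CPM in fl/fl EBd2, with 5 of 10 higher and 3 lower. Of the 7 formative markers 1 was higher and 6 were lower in KO EBd2. No cell type list other than that of surface epithelium had a marker at 0 in either EBd2 group.

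In ES cells fewer members were called between KO and fl/fl, and the rises were led by claudins and occludin. Of the 37 genes 9 were higher and 6 lower (24.3% and 16.2%), against a background of 10.9% higher and 12.8% lower over all genes (23.7% in either direction). Crb2 was the only member past 2-fold, against 1.05% of all genes called at least 2-fold higher and 0.187% lower. The median log2 difference was 0.11 over the members and 0.004 over all genes. None of the 4 tested desmosomal cadherins was called. With library sizes alone Dsg2 (0.18, adjusted p = 0.0429, edgeR) and the plaque gene Dsp (0.21, adjusted p = 0.0365) were called higher in KO ES cells. Dsc2 and Dsg3 were not called with them (adjusted p = 0.0809 and 0.991, edgeR). The KO libraries stood above the fl/fl libraries for 19 members and below them for 9, against 32.3% of all genes each way.

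Claudins made up 4 of the 9 rises in ES cells. Cldn6 was at 131 and 132 CPM in KO ES cells and at 116 and 115 CPM in fl/fl ES cells, a log2 difference of 0.19 ± 0.032 (adjusted p = 0.002104, edgeR). Cldn7 was at 80.2 and 79.5 CPM in KO ES cells and at 67.5 and 66.2 CPM in fl/fl ES cells, a log2 difference of 0.26 ± 0.045 (adjusted p = 0.00212, edgeR). Cldn3 was at 22.5 and 23.6 CPM in KO ES cells and at 19.1 and 15.05 CPM in fl/fl ES cells, a log2 difference of 0.43 ± 0.098 (adjusted p = 0.00883, edgeR). KO libraries were higher than fl/fl libraries in all 3. The interaction with stage was not called for them (adjusted p = 0.154, 0.267 and 0.124, edgeR). Cldn5 was at 2.36 and 1.81 CPM in KO ES cells and at 1.17 and 1.37 CPM in fl/fl ES cells (log2 difference 0.72 ± 0.23, adjusted p = 0.0465, edgeR). Cldn4, the most abundant claudin in ES cells, was lower, at 241 and 236 CPM in KO ES cells and 257 and 260.3 CPM in fl/fl ES cells (log2 difference -0.12 ± 0.037, adjusted p = 0.0427, edgeR).

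Occludin rose in KO ES cells, at 17.8 and 16.96 CPM against 12.3 and 13.2 CPM in fl/fl ES cells, a log2 difference of 0.45 ± 0.085 (adjusted p = 0.00348, edgeR). Pard3 was at 75.1 and 79.02 CPM in KO ES cells and at 63.4 and 68.3 CPM in fl/fl ES cells, a log2 difference of 0.23 ± 0.051 (adjusted p = 0.00797, edgeR). Crb2, the Crumbs protein needed when cells leave the primitive streak in mouse embryos, was at 2.45 and 1.85 CPM in KO ES cells and at 0.943 and 0.733 CPM in fl/fl ES cells, a log2 difference of 1.35 ± 0.32 (adjusted p = 0.0113, edgeR). The groups did not overlap for any of them, and Crb2 stayed under 3 CPM. With counts thinned to the smallest total, the Crb2 difference was 0.84 and was not called (adjusted p = 0.226, edgeR). Jam3 and Cgn were also higher in KO ES cells, by 0.46 ± 0.15 (adjusted p = 0.0447, edgeR) and 0.16 ± 0.042 (adjusted p = 0.0191, edgeR). Jam3 was at 11.1 and 8.71 CPM in KO ES cells and at 6.51 and 7.91 CPM in fl/fl ES cells, and Cgn at 88.9 and 91.5 CPM in KO ES cells and 78.2 and 83.3 CPM in fl/fl ES cells.

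The falls in KO ES cells took in the tight junction plaque genes Tjp3 and Cgnl1. Tjp3 was at 84.6 and 87.5 CPM in KO ES cells and at 99.2 and 96.5 CPM in fl/fl ES cells, a log2 difference of -0.19 ± 0.046 (adjusted p = 0.0131, edgeR). Cgnl1 was at 37.01 and 37.7 CPM in KO ES cells and at 43.7 and 44.7 CPM in fl/fl ES cells, a log2 difference of -0.24 ± 0.065 (adjusted p = 0.0206, edgeR). Both KO libraries were below both fl/fl libraries in these genes. With library sizes alone neither fall was called, at -0.12 for Tjp3 (adjusted p = 0.0945, edgeR) and -0.17 for Cgnl1 (adjusted p = 0.0762, edgeR). Jup was at 84.5 and 86.2 CPM in KO ES cells and at 102 and 95.99 CPM in fl/fl ES cells (log2 difference -0.21 ± 0.042, adjusted p = 0.00403, edgeR), and Jam2 at 56.8 and 55.4 CPM in KO ES cells and 62.98 and 62.5 CPM in fl/fl ES cells (log2 difference -0.16 ± 0.043, adjusted p = 0.0182, edgeR).

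Of the 15 members called in ES cells, 7 were called in the same direction in EBd2 (among them Cldn3, Cldn5, Cldn6, Cldn7, Jam3 and Tjp3), 4 in the opposite direction (Cgn, Cldn4, Jam2 and Jup) and 4 were not called there (Cgnl1, Crb2, Ocln and Pard3). Cldn6, Cldn7 and Ocln were called in each of the 8 fits that left out 1 library, and the other 12 calls were lost in at least 1 of them. Calls were lost, with the adjusted p in brackets, without KO EBd2 lot 1 for Cldn5 (0.0665) and Jam3 (0.0513), without KO EBd2 lot 2 for Cldn5 (0.06597) and Jam3 (0.05196), and without fl/fl EBd2 lot 1 for Cldn4 (0.0557) and Cldn5 (0.0523). Further calls were lost without fl/fl EBd2 lot 12 for Cldn4 (0.0558) and Cldn5 (0.0524), without KO ES lot 1 for Cgnl1 (0.114), Cldn4 (0.122), Cldn5 (0.268), Crb2 (0.0905), Jam2 (0.0644), Jam3 (0.305) and Tjp3 (0.103), and without KO ES lot 12 for Cgn (0.117), Cgnl1 (0.0723), Cldn3 (0.0643), Cldn4 (0.205), Jam2 (0.109) and Pard3 (0.0694). They were also lost without fl/fl ES lot 1 for Cgn (0.189), Cgnl1 (0.0794), Cldn4 (0.1396), Cldn5 (0.211), Jam2 (0.108), Jam3 (0.28), Jup (0.0584), Pard3 (0.101) and Tjp3 (0.113), and without fl/fl ES lot 2 for Cgnl1 (0.1301), Cldn3 (0.0684), Cldn4 (0.228), Cldn5 (0.0995), Crb2 (0.0854), Jam2 (0.1004), Jam3 (0.0622) and Tjp3 (0.0659). With library sizes alone, 15 members were higher and 2 lower, and Cldn4 (adjusted p = 0.378, edgeR) and Jam2 (adjusted p = 0.143, edgeR) were among the falls no longer called. DESeq2 did not call Cgn (adjusted p = 0.0533), Cldn5 (adjusted p = 0.190) or Jam2 (adjusted p = 0.0731). Thinning lost Cgn (adjusted p = 0.105, edgeR), Cldn4 (0.171), Cldn5 (0.278), Jam2 (0.133) and Pard3 (0.0615), and Cldn5 was also lost with only the 4 ES libraries (adjusted p = 0.0730, edgeR). Of the partner lists, 6 of 7 tested desmosome partners were higher in KO ES cells and none was lower, with a median log2 difference of 0.52. This count and those that follow stand beside 10.9% of all genes called higher and 12.8% lower in ES cells. The other lists gave 3 higher and 3 lower of 13 adherens junction and nectin genes, 1 and 1 of 8 gap junction genes, 5 and 6 of 25 scaffold and polarity partners, 1 and 2 of 15 epithelial regulators, and 1 and 0 of 8 mesenchymal transition genes. Feeder markers summed to 1146 to 1239 CPM in KO ES cells and 974 to 1012 CPM in fl/fl ES cells, with 8 of 15 tested higher and none lower, and keratinocyte markers to 32.7 to 33.8 CPM in KO and 11.04 to 11.09 CPM in fl/fl. Trophectoderm markers summed to 309 to 324 CPM in KO and 286 to 289 CPM in fl/fl ES cells, and endoderm markers to 89.1 to 89.3 CPM in KO and 103 to 105 CPM in fl/fl. The part of these cells in the results was not tested.

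Between the stages, most tight junction plaque genes were higher and Jam2, Cldn4 and Pkp3 were lower in fl/fl EBd2 than in fl/fl ES cells. Of the 37 genes 15 were higher and 8 lower in fl/fl EBd2 than in fl/fl ES cells, against a background of 28.9% higher and 30.1% lower (59.0% in either direction). At least 2-fold differences were called for 3 higher and 2 lower genes, against 7.47% and 9.49% of all genes. Jam2 was at 19.3 and 19.4 CPM in fl/fl EBd2 and at 62.98 and 62.5 CPM in fl/fl ES cells, a log2 difference of -1.698 ± 0.063 (adjusted p = 2.01e-09, edgeR). Pkp3 was at 9.31 and 10.4 CPM in fl/fl EBd2 and at 19.3 and 18.2 CPM in fl/fl ES cells (log2 difference -0.92 ± 0.11, adjusted p = 2.30e-05, edgeR), and Cldn4 differed by -0.98 ± 0.044 (adjusted p = 8.35e-09, edgeR). These 3 genes were lower in both embryoid body libraries than in either ES library. Of the plaque genes, Cgn rose by 0.45 ± 0.048 (adjusted p = 9.01e-06, edgeR), Tjp1 by 0.38 ± 0.051 (adjusted p = 6.41e-05, edgeR) and Cgnl1 by 0.94 ± 0.068 (adjusted p = 3.58e-07, edgeR), while Tjp3 was lower, at -0.996 ± 0.059 (adjusted p = 7.95e-08, edgeR). Dsp was at 38.7 and 42.9 CPM in fl/fl EBd2 and at 39.2 and 35.4 CPM in fl/fl ES cells and was not called (log2 difference 0.13 ± 0.079, adjusted p = 0.166, edgeR). The called genes named here held in each of the 8 fits without 1 library.

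In KO cells 6 of the 9 tested desmosomal genes were higher in EBd2 than in ES cells, and Pkp2 was lower. Of the 37 genes 18 were higher and 6 lower in KO EBd2 than in KO ES cells, against a background of 31.7% higher and 33.1% lower (64.8% in either direction). At least 2-fold differences were called for 7 higher genes and 1 lower gene, against 11.6% and 8.02% of all genes, and library sizes alone gave 24 higher and 3 lower. Dsp was at 133 and 122 CPM in KO EBd2 and at 41.3 and 40.9 CPM in KO ES cells, a log2 difference of 1.63 ± 0.0603 (adjusted p = 1.89e-09, edgeR). Dsc2 was at 23.8 and 25.8 CPM in KO EBd2 and at 5.84 and 7.23 CPM in KO ES cells, a log2 difference of 1.92 ± 0.12 (adjusted p = 1.10e-07, edgeR). Dsg2 differed by 0.54 ± 0.06 (adjusted p = 1.01e-05, edgeR), Pkp3 by 0.68 ± 0.084 (adjusted p = 2.65e-05, edgeR) and Marveld1 by 1.68 ± 0.07 (adjusted p = 4.79e-09, edgeR). All 5 were higher in both KO embryoid body libraries than in either KO ES library. Pkp2 differed by -0.52 ± 0.057 (adjusted p = 1.03e-05, edgeR), and Dsc3 and Pkp4 were not called (adjusted p = 0.226 and 0.723). Jam2 was at 58.4 and 55.6 CPM in KO EBd2 and at 56.8 and 55.4 CPM in KO ES cells. Its log2 difference was 0.022 ± 0.048 (adjusted p = 0.72, edgeR). With library sizes alone it was called higher, at 0.17 (adjusted p = 0.00784, edgeR). Tjp3 was lower in KO EBd2, at -1.48 ± 0.061 (adjusted p = 4.64e-09, edgeR). Cldn7 was lower in KO EBd2, at -0.15 ± 0.049 (adjusted p = 0.0214, edgeR), and with library sizes alone its difference was 0.0014 (adjusted p = 0.996). Its call was also lost without the library of KO EBd2 lot 2 (adjusted p = 0.243, edgeR) and without that of KO ES lot 1 (adjusted p = 0.0626).

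The genotype difference itself differed between the stages for 23 of the 37 genes, by the interaction term of the edgeR fit. It was more positive in EBd2 than in ES cells for 12 genes and more negative for 11, against a background of 22.4% and 25.7% of all genes (48.0% in either direction). At least 2-fold were 6 of the first and 2 of the second, against 9.76% and 5.30% of all genes. Library sizes alone gave 15 and 4, without Cldn1, Crb3, Ocln, Pard3, Patj, Pkp2 and Tjp1. DESeq2 did not call Cldn1, Crb2, Crb3, Dsg3 and Ocln, and thinning to the smallest total lost Cldn1, Crb2, Dsg3, Jam3, Ocln and Patj. The 12 were Cldn4, Dsc2, Dsg2, Dsg3, Dsp, F11r, Jam2, Jam3, Jup, Marveld1, Pard6g and Pkp3. The 11 included Cgn, Cldn1, Crb2, Crb3, Ocln, Pard3, Patj, Pkp2, Tjp1 and Tjp3. Among the desmosomal cadherins and plaque proteins 6 of 9 tested genes were in the first set and 1, Pkp2, in the second. Tjp1, Tjp3 and Cgn were in the second set and none of the tight junction plaque in the first. Jam2 had the smallest adjusted p, with a genotype difference of 1.56 ± 0.068 in EBd2 and -0.16 ± 0.043 in ES cells, an interaction of 1.72 ± 0.081 (adjusted p = 4.86e-08, edgeR). Cgn was lower in KO EBd2 (-0.47 ± 0.052) and higher in KO ES cells (0.16 ± 0.042), an interaction of -0.63 ± 0.067 (adjusted p = 1.51e-05, edgeR). Cldn4 and Jup were higher in KO EBd2 and lower in KO ES cells, with interactions of 0.82 ± 0.0598 (adjusted p = 9.12e-07, edgeR) and 0.43 ± 0.065 (adjusted p = 0.0002599, edgeR). Of the 23 calls 15 held in every fit without 1 library. Calls were lost, with the adjusted p in brackets, without KO EBd2 lot 1 for Cldn1 (0.105), Crb2 (0.0747) and Dsg3 (0.0862), without KO EBd2 lot 2 for Cldn1 (0.124), Crb3 (0.167), Dsg3 (0.0501), Jam3 (0.134), Ocln (0.0732) and Tjp1 (0.113), and without fl/fl EBd2 lot 1 for Cldn1 (0.115), Crb3 (0.0581) and Dsg3 (0.0956). Further calls were lost without fl/fl EBd2 lot 12 for Cldn1 (0.101), Crb2 (0.121), Crb3 (0.106), Jam3 (0.209), Patj (0.0818) and Tjp1 (0.0945), without KO ES lot 1 for Cldn1 (0.0641), Crb2 (0.0931), Crb3 (0.063), Dsg3 (0.0966) and Ocln (0.0615), and without KO ES lot 12 for Cldn1 (0.234), Crb3 (0.0992), Jam3 (0.145), Patj (0.0581) and Tjp1 (0.113). They were also lost without fl/fl ES lot 1 for Cldn1 (0.162), Crb3 (0.0572), Dsg3 (0.1002), Ocln (0.0668) and Tjp1 (0.0826), and without fl/fl ES lot 2 for Cldn1 (0.0535), Crb2 (0.0823), Crb3 (0.0928), Dsg3 (0.107), Jam3 (0.184) and Tjp1 (0.0637).

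**Figure D4:**
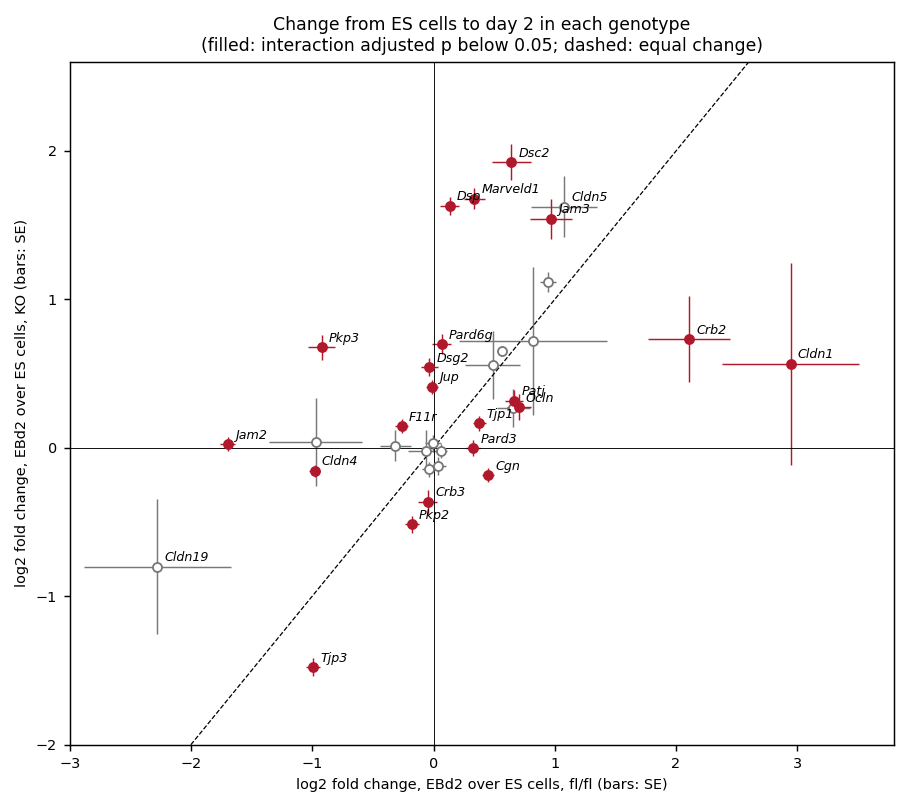
Log2 difference between EBd2 and ES cells in KO (y axis) and in fl/fl (x axis) for tested genes, with bars of 1 standard error and a dashed line of equal change. Filled points passed the interaction test at an adjusted p of 0.05. Dsg3 is left out because of its wide error. Jam2, Pkp3, Dsp, Dsc2 and Marveld1 lie above the line, and Tjp3, Cgn and Pkp2 lie below it.

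The 18 members that were not tested had between 0 and 34 counts over the 8 libraries. Cldn16, Cldn17, Cldn22, Cldn24 and Dsg4 had none. A count of 0 allows up to 3 counts, which is 0.268 to 0.405 CPM in an EBd2 library and 0.134 to 0.147 CPM in an ES library. Pkp1 (34 counts), Cldn23 and Crb1 (27 counts each), Cldn15 (26 counts), Cldn20 (20 counts), Cldn10 (15 counts) and Cldn14 (13 counts) were the highest of the others. Crb1, a Crumbs protein of the retina, had 3 and 4 counts in KO EBd2 and 3 and 13 in fl/fl EBd2. Cldn2, Cldn8, Cldn11, Cldn13, Cldn18 and Dsc1 had 1 to 8 counts.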

How the data were processed

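RNA was purified on RNeasy columns and poly(A)-selected with magnetic beads, per the labels' protocols. The authors deposited raw counts by gene symbol, in 1 table for 8 libraries, whole numbers without normalization. The submitters' processing notes name Trim Galore 0.6.7 and, as builds, GRCm38 and mm10. The sources used here name no aligner, counter, gene annotation or strand setting.

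The test was edgeR 4.0.16 in R 4.3.3. Genes passing filterByExpr with the 4 groups (16542) were scaled by TMM and fitted with 4 group means over all 8 libraries. The quasi-likelihood test (two-sided) with Benjamini-Hochberg adjustment over all of them gave the calls, at 0.05, and the standard error is the absolute log2 difference divided by the square root of F. Between libraries of a group the common biological variation was 3.40%, and 4 residual degrees of freedom remained. The pipeline was tested on simulated data. CPM was divided by exon length from GENCODE vM21 only to compare levels between genes, and promoter windows came from RefSeq (GRCm38.p6). All 55 members matched vM21 once, and no member with a total of 20 or more counts shared its counts in every library with another gene.

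Libraries of 1 group differed by more than sampling noise (chi-square per degree of freedom 2.10 to 2.81), so each was counted as a sample, which does not show that they came from separate cultures. Lot 1 libraries did not deviate from their group means together (r = -0.094 to 0.15 over 9939 genes), so lots were not used as pairs. Alternatives were RLE factors or library sizes alone, no filter or 1 CPM, DESeq2 1.42.0, the 4 libraries of a comparison, thinning to the smallest total, lots as a block, and each library left out.

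Members and lists were chosen with earlier results of these data known. Values in every library are given for members called in EBd2 that reach 1 CPM (up to 30) or called in ES cells (up to 15), and for 22 well-known members whatever their p. From each partner list (adherens junction and nectin, gap junction, scaffold and polarity, desmosome, epithelial regulators, mesenchymal transition) up to 3 called genes with the smallest p in EBd2 are named. Dsc3, Pkp4, Cldn12, Cldn19, Pard6a and the members not tested are named outside that rule, to account for every member. Some genes that these rules name are in the fits and counts but are not reported here. No column of the table was left unused.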

Additional observations from a re-analysis of the deposited data

Results flagged for a closer look

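For 23 members the difference between KO and fl/fl was not the same in EBd2 as in ES cells, by the interaction term of the edgeR quasi-likelihood fit (log2 difference in EBd2 minus that in ES cells, ± standard error, n = 2 libraries per group). A share of 48.0% of all genes tested passed the same test. Of the 23 calls 15 held in each of the 8 fits without 1 library. Cldn1 was called in 0, Crb3 in 1 and Dsg3 in 2 of these 8 fits. Positive values belonged to desmosomal and JAM genes, Cldn4, Marveld1 and Pard6g. They were 1.496 ± 0.098 for Dsp, 1.28 ± 0.201 for Dsc2, 0.58 ± 0.092 for Dsg2, 4.51 ± 1.55 for Dsg3, 1.602 ± 0.14 for Pkp3 and 0.43 ± 0.065 for Jup. Among the other genes they were 1.72 ± 0.081 for Jam2, 0.57 ± 0.22 for Jam3, 0.41 ± 0.069 for F11r, 0.82 ± 0.0598 for Cldn4, 1.34 ± 0.11 for Marveld1 and 0.63 ± 0.102 for Pard6g. Negative values belonged to genes of the tight junction plaque, to the polarity genes Crb2, Crb3, Patj and Pard3, and to Ocln, Cldn1 and Pkp2. They included -0.21 ± 0.071 for Tjp1, -0.48 ± 0.089 for Tjp3 and -0.63 ± 0.067 for Cgn. For the polarity genes they were -1.38 ± 0.45 for Crb2, -0.32 ± 0.11 for Crb3, -0.35 ± 0.101 for Patj and -0.33 ± 0.0804 for Pard3, and the remaining values were -0.43 ± 0.13 for Ocln, -2.38 ± 0.89 for Cldn1 and -0.34 ± 0.081 for Pkp2. The widest error was that of Dsg3, which had 1 count in fl/fl EBd2.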

How the results depend on the processing

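In EBd2, 25 members were called with RLE factors, 26 with library sizes alone and 22 with DESeq2, against 25 in the fit reported, and no alternative but the block changed the count in a direction by more than 1.5 times. In ES cells library sizes alone gave 15 higher and 2 lower, and thinning to the smallest total gave 9 calls, 5 of them higher. For KO EBd2 against KO ES cells library sizes alone left 3 lower. Members with a more negative difference in EBd2 by the interaction numbered 4 with library sizes alone and 7 with DESeq2 or thinning, against 11. Direction was reversed with library sizes alone for Patj (0.025), Tjp1 (0.059) and Gja1 (0.011) in EBd2, and for Cldn7 (0.0014) and Pard3 (0.15) between KO EBd2 and KO ES cells, the last being called (adjusted p = 0.0347, edgeR). The median over all genes moved by 0.23 and 0.15 in these comparisons. When 1 library was left out, 23 to 25 members were called in EBd2 (15 to 17 higher, 6 to 9 lower) and 6 to 14 in ES cells (5 to 8 higher, 1 to 7 lower). By stage the ranges were 20 to 24 in KO and 21 to 25 in fl/fl, and by interaction 18 to 20 (11 to 12 positive, 7 to 9 negative). In ES cells 7 were called without KO lot 1, 9 without KO lot 12, and 6 each without fl/fl lot 1 and without fl/fl lot 2. The cause of these changes was not tested.

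With lots 1, 2 and 12 as a replicate block, 21 members were called in EBd2 (16 higher, 5 lower), 9 in ES cells (3 lower), 23 by stage in fl/fl, 20 by stage in KO, and 13 by interaction (3 negative). With a block of lot 1 against the other lots the counts were 25, 13, 22, 23 and 20. With the block of 3 lots the EBd2 calls lost were Cldn1 (adjusted p = 0.0595, edgeR), Cldn9 (0.0535), Patj (-0.12, adjusted p = 0.283) and Tjp1 (-0.098, adjusted p = 0.1600), and the ES calls lost were Cldn3, Cldn4, Cldn5, Jam2, Pard3 and Tjp3. What libraries of the same lot number share is not known, and the lot 1 differences were at most weakly correlated between groups. EBd2 libraries hold fewer counts than the ES libraries, which limits scarce genes such as Cldn1, Cldn19, Dsc3 and Dsg3.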
